A study of Rattus norvegicus with 8 samples.

Results

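The miRNA profile of the sham-operated medial vestibular nucleus (MVN) was read from the 4 arrays of the sham operation (SO) group, selected by the SO mark in their titles, out of 8 arrays in the series. The study compared unilateral vestibular deafferentation (UVD), in which the left labyrinth is destroyed, with the sham operation. All animals were male Sprague–Dawley rats aged 7 weeks. In the SO group the left ear was opened and the tympanic membrane and ossicles other than the stapes were taken out. The semicircular canal was not opened and no ethanol was given. The left MVN was taken at 4 h (2 arrays) or 4 d (2 arrays) after surgery, and the MVNs of several rats were pooled for each array. The arrays are named here by the numbers in their titles, SO 4 h replicates 1 and 2 and SO 4 d replicates 1 and 2, while their source labels give both arrays of a timepoint the same number. According to the methods each array had its own pool, so the SD over the 4 arrays is a spread among pools and also holds any difference between both timepoints. No test between groups was run, and where values of the SO 4 h and SO 4 d arrays are set side by side this only describes the 4 arrays. The number of arrays limits the precision of every value.

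miRNAs are short RNAs cut from a hairpin precursor, and either arm of the hairpin, named 5p or 3p, can be kept as the mature strand. The mature strand pairs with messenger RNAs mainly through its seed, the bases near its 5′ end, so miRNAs that share a seed share many predicted targets. Brain tissue is known for abundant miR-124 and miR-9 in neurons, miR-219 and miR-338 in the oligodendrocytes that form myelin, and the let-7 family in mature cells of many kinds.

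RNA was labeled at its 3′ end with a single dye and hybridised to an Agilent rat miRNA array that carries 16 spots for each of 758 miRNAs, with 1 to 4 different probes per miRNA. Values are the total gene signal, the background-subtracted intensity summed by the scanner software for 1 miRNA, in scanner units. Since each miRNA is read by its own probes, the order of signals is an order of array signal and need not be the order of molecule numbers. The summed signal was 526349 on SO 4 h replicate 1, 646920 on SO 4 h replicate 2, 618421 on SO 4 d replicate 1 and 618702 on SO 4 d replicate 2. Because SO 4 h replicate 1 was dimmer, shares of the summed signal of each array are given beside the signals. No spot was saturated.

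Of the 758 miRNAs, 399 (52.6%) were called detected on all 4 arrays, 30 on 1 to 3 arrays and 329 (43.4%) on none. Between 408 and 415 miRNAs were detected per array. The call requires a signal over 3 times its own error, and an undetected miRNA is written as 0.1, so below the call there is a placeholder and no level. The highest signal among the 30 miRNAs with mixed calls was 16.3, so the calls disagreed only for dim miRNAs. The dimmest miRNAs inside the boundary were miR-15b-3p with a mean of 2.45, miR-26b-3p with 2.77, miR-151-3p with 3.14, miR-101a-5p with 3.37 and miR-708-3p with 3.58. Just outside it, miR-3558-3p, miR-331-5p, miR-383-3p, miR-153-5p, miR-874-5p and miR-193a-5p were each detected on 3 arrays, and miR-3558-3p read 11.9, 16.3 and 11.2 on the arrays that detected it.

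Mature sequences are shown for the miRNAs that carry most of the signal, since several of them are close relatives. They are RefSeq sequences on the GRCr8 assembly, in which 684 of the 758 array miRNAs matched 1 sequence. Each is written 5′ to 3′ with the seed, bases 2 to 8, in capitals. The first set holds the 3 members of the miR-29 family, which share the seed AGCACCA.
miR-29b-3p: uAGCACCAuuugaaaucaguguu
miR-29a-3p: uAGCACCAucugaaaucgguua
miR-29c-3p: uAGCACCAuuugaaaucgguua
Counted from 1 at the 5′ end, miR-29c-3p differs from miR-29a-3p by C10U, and miR-29b-3p differs from it by C10U, G18A, U21G and A22U and by 1 further base at its end. The second set is the let-7 family with the seed GAGGUAG, given in falling order of signal.
let-7c-5p: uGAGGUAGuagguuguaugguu
let-7a-5p: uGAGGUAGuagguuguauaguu
let-7f-5p: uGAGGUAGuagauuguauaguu
let-7b-5p: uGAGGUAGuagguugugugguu
let-7g-5p: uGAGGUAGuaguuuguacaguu
let-7i-5p: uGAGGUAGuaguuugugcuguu
let-7d-5p: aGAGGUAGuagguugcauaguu
let-7e-5p: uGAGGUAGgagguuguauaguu
miR-98-5p: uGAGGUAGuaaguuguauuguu
From let-7a-5p, let-7c-5p differs by A19G, let-7f-5p by G12A and let-7e-5p by U9G, and let-7b-5p differs by A17G and A19G. The third set holds other bright miRNAs with roles in neurons or glia.
miR-219a-5p: uGAUUGUCcaaacgcaauucu
miR-338-3p: uCCAGCAUcagugauuuuguuga
miR-125b-5p: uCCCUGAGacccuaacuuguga
miR-34a-5p: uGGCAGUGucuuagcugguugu
miR-9a-5p: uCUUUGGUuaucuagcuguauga
miR-9a-3p: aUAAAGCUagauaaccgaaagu
miR-124-3p belongs beside these and is named only. On GRCr8, miR-29b-3p lies at chr4:60618342-60618364 on the minus strand and again at chr13:109098882-109098904 on the plus strand, miR-219a-5p at chr3:33516561-33516581 on the minus strand and miR-338-3p at chr10:105796345-105796367 on the minus strand. let-7c-5p lies on the plus strand at chr11:29688127-29688148 and at chr7:118683636-118683657.

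A few miRNAs held most of the signal. The brightest miRNA of each array held 4.93% to 5.90% of its summed signal. The top 10 held 41.8% ± 0.640 (SD, n = 4), the top 20 held 62.3% ± 1.27, the top 50 held 84.5% ± 0.726 and the top 100 held 94.2% ± 0.307. The signal was concentrated to the extent that 13 or 14 miRNAs per array held 50% of it and 67 to 74 held 90%. Mean signals of the 399 detected miRNAs ran from 2.45 to 33497, with a median of 92.5. Their levels were spread unevenly, with 46 miRNAs under 10, 157 from 10 to 100, 119 from 100 to 1000, 59 from 1000 to 10000 and 18 above 10000. The 18 miRNAs above 10000 held 59.6% of the signal and the 59 miRNAs below them 31.5%.

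**Figure D1:**
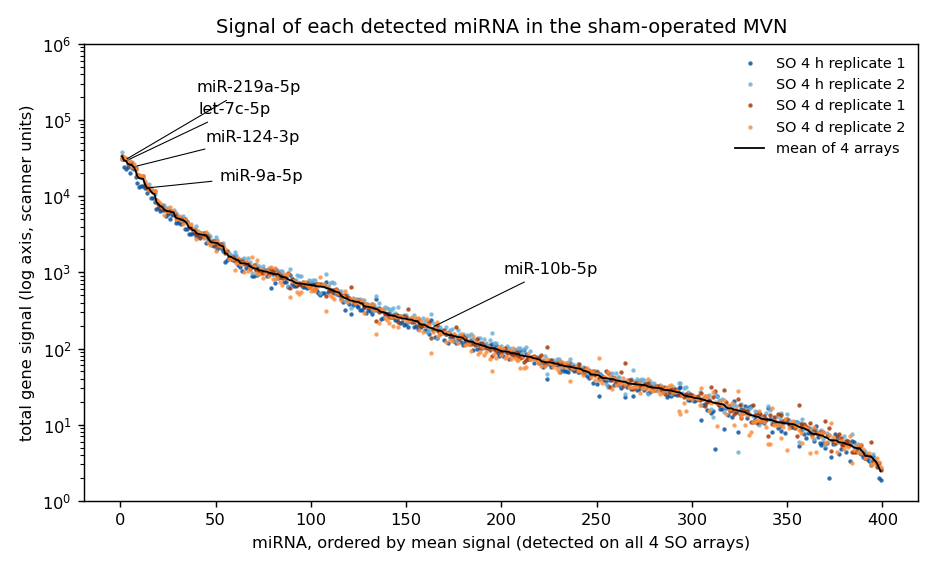
Total gene signal (log axis, scanner units) of the 399 miRNAs detected on all 4 SO arrays, ordered along the horizontal axis by mean signal, with 1 point per array and a line for the mean of 4 arrays. The means run from 33497 down to 2.45, and 4 of the 5 labeled markers sit at the bright end while miR-10b-5p lies at a mean of 186.

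miR-29b-3p, whose family is known to target collagen and other matrix messages and to rise with brain maturation, had the highest mean. It read 31036 and 38160 on the SO 4 h arrays and 34278 and 30516 on the SO 4 d arrays (mean 33497 ± 3526). miR-219a-5p, a miRNA required for oligodendrocytes to mature, read 23940, 30748, 30563 and 32455 in the same order of arrays (29426 ± 3756). let-7c-5p read 22897, 30850, 31136 and 31604 (29122 ± 4162). SO 4 h replicate 1 was the lowest array for miR-219a-5p and let-7c-5p, and the other 3 arrays lay close together, whereas miR-29b-3p was highest on SO 4 h replicate 2.

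The next places were taken by miR-125b-5p, an abundant miRNA of neural tissue, with a mean of 26571, let-7a-5p with 26112, miR-29a-3p with 25659 and miR-124-3p, the best known miRNA of neurons, with 24341. miR-124-3p read 22970, 23923, 24101 and 26371, signals that are not corrected for the array totals. miR-338-3p, the other miRNA of myelinating cells, had a mean of 21959 and miR-34a-5p, a miRNA induced by p53 and also present in cerebellum, 18133. They were followed by let-7f-5p (17227), miR-9a-3p (17066), let-7b-5p (16968), miR-26a-5p (14329) and miR-9a-5p (12851). The last places of the top 20 were held by miR-29c-3p (12786), let-7g-5p (11622), miR-23b-3p (10969), let-7i-5p (10690), let-7d-5p (8389) and miR-181a-5p (7914).

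**Figure D2:**
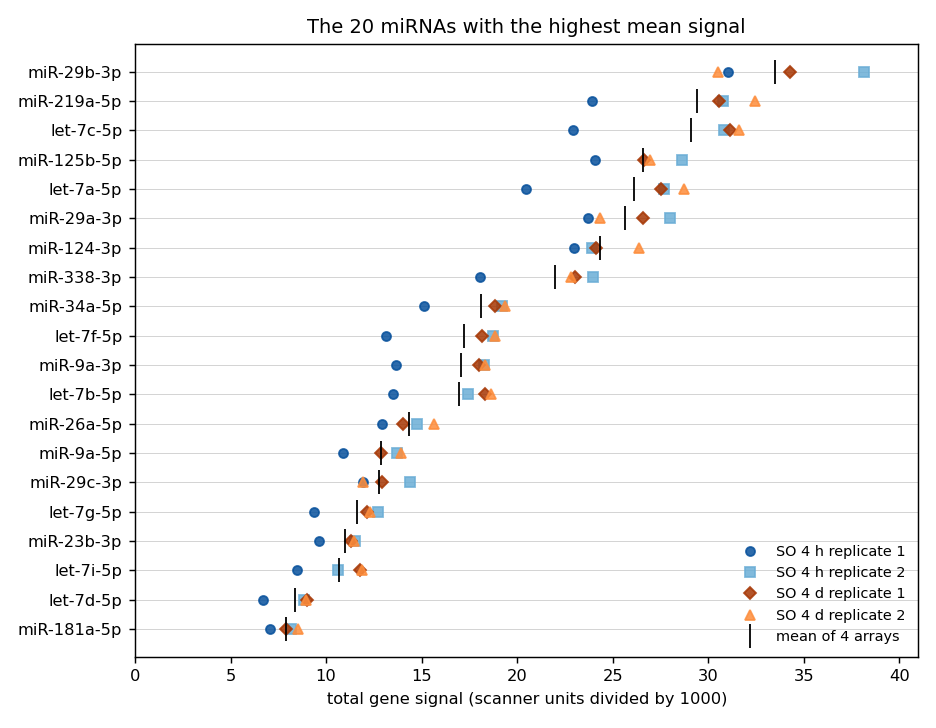
Total gene signal (scanner units divided by 1000) of the 20 miRNAs with the highest mean, with 1 symbol per SO array and a bar for the mean of 4 arrays. Signals of neighbors overlap throughout, and SO 4 h replicate 1 is the lowest array for most of the 20.

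The order inside the top 20 was only partly resolved. The ranges of the 4 arrays overlapped in all 19 pairs of neighbors, but these ranges also hold the differences in summed signal between arrays. In 5 pairs the brighter miRNA was the brighter one on every array: miR-338-3p over miR-34a-5p, miR-34a-5p over let-7f-5p, let-7b-5p over miR-26a-5p, miR-26a-5p over miR-9a-5p and let-7i-5p over let-7d-5p. In the other 14 pairs at least 1 array had the reverse order. Membership was steadier than order, as 19 of the 20 were in the top 20 of every array and 9 of the top 10 were in the top 10 of every array. Across the 399 miRNAs, the Spearman correlation between any pair of SO arrays was 0.989 to 0.997. These arrays share the probes, so part of that likeness belongs to the array design.

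Grouped by seed, the let-7 family was the brightest. All 9 let-7 miRNAs were detected, against 52.6% of all miRNAs, with a median of their mean signals of 11622. Together they held 20.95% ± 1.43 of the signal. The share was 19.02% and 20.8% on the SO 4 h arrays and 21.8% and 22.2% on the SO 4 d arrays. let-7c-5p supplied 23.0% of the family's signal, and 7 of the 9 were in the top 20 of each array. let-7e-5p was outside it at 5259, and miR-98-5p was the dimmest member at 1317. Members differ by as little as 1 base, and how far a probe for one member also binds another was not tested.

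The miR-29 family was next with 12.0% ± 0.837. Its share was 12.7% and 12.4% on the SO 4 h arrays and 11.9% and 10.8% on the SO 4 d arrays. miR-29b-3p supplied 46.6% of it. The seed of miR-219a-5p held 4.87% ± 0.296, the seed of miR-125b-5p and miR-125a-5p 4.83% ± 0.132, and that of miR-338-3p 3.64% ± 0.140. These 5 seeds together held 46.2% of the signal and the first 10 held 60.0%. The 684 matched miRNAs carry 581 different seeds, 305 of which had a detected miRNA. Only 36 seeds were shared by at least 2 detected miRNAs. The miRNAs without a matched sequence held 7.90% of the signal and are in no family here. Among them, miR-124-3p alone held 4.06%, more than the seed of miR-338-3p, and miR-99a-5p held 1.07% and miR-30b-5p 0.532%, so the order of families covers matched miRNAs only.

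**Figure D3:**
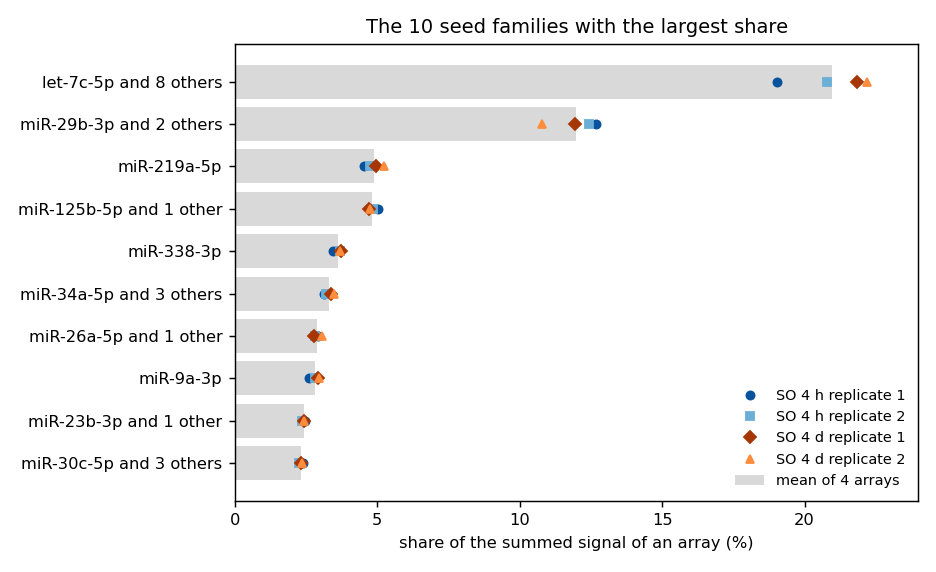
Share of the summed signal of an array (%) for the 10 seed families with the largest share among miRNAs with a matched sequence (miR-124-3p, with 4.06%, is not among them), named by their brightest member, with a bar for the mean of 4 arrays and 1 symbol per SO array. The let-7 seed holds 20.95% and the miR-29 seed 12.0%, and the next 8 hold less than 5% each.

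The tissue was checked against 5 markers and against lists of miRNAs known for cell types or tissues. miR-132-3p, miR-7a-5p, miR-134-5p and miR-206-3p are each on 2 of the lists used here, so the lists are not fully separate. In pooled tissue, fewer cells of a type and less RNA per cell cannot be told apart. The neuronal markers miR-124-3p (rank 7) and miR-9a-5p (rank 14), the oligodendrocyte marker miR-219a-5p (rank 2) and let-7c-5p (rank 3) were all in the top 20, with ranks counted over all 758 miRNAs. The first 3 mark nervous tissue that holds neurons and myelin, let-7c-5p is found in many tissues, and none of the 4 singles out the MVN. The marker of caudal position, miR-10b-5p, was detected on all 4 arrays at a much lower level, with 238 and 282 on the SO 4 h arrays and 137 and 88.0 on the SO 4 d arrays (mean 186, rank 163).

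All 14 neuron-enriched miRNAs were detected on every array, against 52.6% of all miRNAs, and they held 13.4% ± 0.341 of the signal. The median of their mean signals was 2857, against 92.5 for all detected miRNAs. After miR-124-3p and both arms of miR-9a, the brightest were miR-128-3p, a regulator of neuronal excitability, at 7404 and miR-129-2-3p at 6156. miR-137-3p, which acts in synapse formation, was dimmer at 787, and its signals were 935 and 1100.5 on the SO 4 h arrays and 632 and 480 on the SO 4 d arrays. Of the 7 miRNAs that respond to neuronal activity, 5 were detected (71.4%) and 2 of these lay above the median of 92.5, led by miR-132-3p at 1503 and miR-212-3p at 1025, which come from 1 precursor transcript driven by the factor CREB. miR-134-5p, which acts in dendrites, had a mean of 91.7, miR-134-3p one of 9.17 and miR-212-5p one of 9.08. miR-132-5p and miR-184 were detected on no array.

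Of the 5 oligodendrocyte miRNAs, 4 were detected (80%, against 52.6% of all miRNAs), and they held 9.17% ± 0.428. Besides miR-219a-5p and miR-338-3p, these were miR-219a-2-3p at 3887 and miR-338-5p at 90.3. miR-219a-1-3p was detected on no array. All 9 miRNAs of astrocytes and reactive glia were detected, with a median of 7231 and a share of 17.7% ± 0.822. That list holds the 3 miR-29 miRNAs, which neurons express too, so its share is not that of 1 cell type. Its other members were the miR-23, miR-27 and miR-24 miRNAs, led by miR-23b-3p, and miR-21-5p, a miRNA that rises after injury, which read 3722, 5009, 4976 and 5028.

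Blood and immune markers were present at lower levels. All 8 microglia and leukocyte miRNAs were detected, against 52.6% of all miRNAs, and held 0.921% ± 0.0201. miR-150-5p, a lymphocyte miRNA, had a mean of 2471 and miR-342-3p one of 1610. The share of miR-342-3p was 0.292% and 0.275% on the SO 4 h arrays and 0.260% and 0.245% on the SO 4 d arrays. miR-142-3p, which is made by nearly all blood cells, read 324, 424, 512 and 569, so it was higher on both SO 4 d arrays than on either SO 4 h array. miR-146b-5p followed at 491. The myeloid miR-223-3p had a mean of 64.6 and the immune activation marker miR-155-5p one of 40.3. The 4 erythroid miRNAs held 0.164%, led by miR-451-5p, the main miRNA of red cells, at 786, with miR-144-3p at 109, miR-486 at 87.0 and miR-144-5p at 5.83. Of the 5 vessel miRNAs, 4 were detected (80%). They were miR-126a-3p of endothelium at 4385, miR-143-3p of smooth muscle at 3090, miR-126a-5p at 248 and miR-145-5p at 167, and miR-145-3p was detected on no array. The list held 1.31% ± 0.0457.

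Neighboring tissues were looked for because the MVN borders the fourth ventricle and the cerebellum. Of the 9 miRNAs listed for choroid plexus or ciliated ependyma, 8 were detected (88.9%, against 52.6% of all miRNAs) and held 0.944% ± 0.0860. miR-204-5p, the main choroid plexus miRNA, read 3240, 3986, 3861 and 4281. The miRNAs of multiciliated cells were next, with miR-34b-5p at 734 and 807 on the SO 4 h arrays and 1124 and 1152 on the SO 4 d arrays, and miR-34c-5p at 645, 669, 990.2 and 956 in the same order. miR-34b-3p had a mean of 31.5, miR-34c-3p of 12.6 and miR-449a-5p, also listed for ciliated cells, of only 6.22 (rank 376). miR-1298 and miR-211-5p were dim at 19.1 and 16.3, and miR-449c-5p was detected on no array. All 5 cerebellum-enriched miRNAs were detected and held 3.40% ± 0.183, most of it miR-34a-5p, while miR-195-5p and miR-497-5p, made from 1 cluster, had means of 1163 and 1115. miR-592 had a mean of 66.1 and miR-206-3p, which is also on the striated muscle list, one of 44.7. What part adjoining tissue has in these signals was not tested.

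The list of striated muscle miRNAs had 5 of 7 members detected (71.4%, against 52.6% of all miRNAs) and held 0.334% ± 0.0368. miR-133b-3p stood far above the others, at 1356, 1861, 1792 and 2057. miR-133a-3p had a mean of 123, miR-499-5p of 65.9, miR-206-3p of 44.7 and miR-1-3p, the most abundant miRNA of muscle, of 21.7. The heart miRNAs miR-208a-3p and miR-208b-3p were detected on no array. miR-208a-5p, the other arm of the first and not on the list, was detected on all 4 arrays with a mean of 27.3. Only 2 of the 5 detected members lay above the median of all detected miRNAs. miR-1b, which was not on the list and was added after its values were seen, shares the seed of miR-1-3p and miR-206-3p. It read 621, 1030, 1103 and 1165, so it supplied 93.7% of that seed's signal. miR-1b differs from miR-1-3p by 1 base over their overlap. How far the probes of miR-1b and miR-1-3p bind each other's miRNA was not tested. The sequences of both miR-133 miRNAs and of miR-206-3p are given because the first pair is so alike.
miR-133b-3p: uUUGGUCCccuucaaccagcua
miR-133a-3p: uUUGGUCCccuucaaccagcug
miR-206-3p: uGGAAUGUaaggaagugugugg
From miR-133a-3p to miR-133b-3p the only substitution is G22A, at the 3′ end where the label is joined. miR-206-3p at chr9:30590747-30590768 and miR-133b-3p at chr9:30594629-30594650 lie on the plus strand of 1 cluster, yet their mean signals differed 39.5-fold. How far the miR-133a and miR-133b probes bind each other's miRNA was not tested.

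The Hox clusters, whose genes are switched on in the caudal hindbrain and spinal cord, hold 8 miRNAs on the array, and 2 of them (25%, against 52.6% of all miRNAs), miR-10a-5p and miR-10b-5p, were detected. miR-10a-5p read 453 and 487 on the SO 4 h arrays and 227 and 156 on the SO 4 d arrays (mean 331, rank 134). Both miRNAs were therefore higher on each SO 4 h array than on each SO 4 d array. The 6 others, miR-10a-3p, miR-10b-3p, miR-196a-5p, miR-196b-5p, miR-196c-5p and miR-615, were detected on no array, and the first 2 of these are the other arms of the detected pair. The RefSeq entries of the detected pair are shown because they begin at different bases and so have different seeds in the table.
miR-10a-5p: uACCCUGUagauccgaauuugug
miR-10b-5p: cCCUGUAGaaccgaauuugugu
With miR-10b-5p set 2 bases further in, the substitution from miR-10a-5p is U12A, counted on miR-10a-5p. miR-10a-5p lies at chr10:81779730-81779752 and miR-10b-5p at chr3:80035886-80035907, both on the plus strand.

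**Figure D4:**
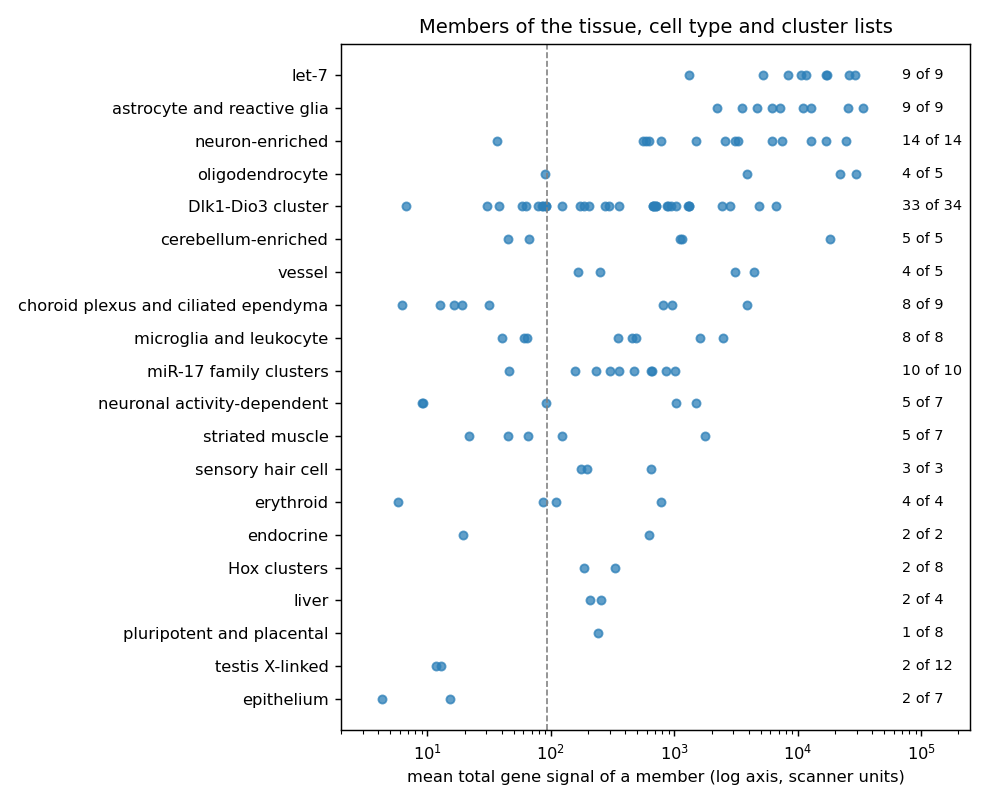
Mean total gene signal (log axis, scanner units) over the 4 SO arrays of each detected member of 20 lists, with the number detected on all 4 arrays of those on the array at the right and a dashed line at 92.5, the median of all 399 detected miRNAs. The let-7, astrocyte and neuron lists lie mostly to the right of the line, and the epithelium and testis lists to its left.

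Lists of distant tissues differed in how much of them was present. Of the 7 epithelium miRNAs, 2 were detected (28.6%, against 52.6% of all miRNAs), miR-141-3p at 15.4 and miR-203a-3p at 4.29, and miR-200a-3p, miR-200b-3p, miR-200c-3p, miR-429 and miR-205 were detected on no array. The liver miRNA miR-122 was detected in neither arm, while miR-192-5p and miR-194-5p, which many tissues make, had means of 255 and 207. Thus 2 of the 4 liver miRNAs (50%) were detected, close to the 52.6% of all miRNAs. Of the 12 testis miRNAs of the X chromosome, miR-743a-3p (12.9) and miR-878 (11.8) were detected on all arrays (16.7%) and 9 on none. Those on none were both arms of miR-742 and miR-463-3p, miR-471-3p, miR-741-3p, miR-871-3p, miR-880-3p, miR-881-3p and miR-883-3p. Of the 8 listed pluripotent and placental miRNAs on the array, miR-290 alone was detected (12.5%), at 242, 248, 229 and 237. The others listed, miR-291a-3p, miR-291a-5p, miR-292-3p, miR-292-5p, miR-293-3p, miR-294 and miR-295-3p, were detected on no array. miR-295-5p, the other arm of the last and not on the list, was detected on all 4 arrays with a mean of 14.8. The 3 sensory hair cell miRNAs, which other sensory cells make too, were all detected, and their signals were higher on both SO 4 d arrays than on both SO 4 h arrays. As shares of the array this held for miR-96-5p and miR-183-5p but not for miR-182, with 0.0325% on SO 4 h replicate 1 and 0.0323% on SO 4 d replicate 1. miR-96-5p read 499, 544, 709.8 and 858, miR-183-5p read 136, 136, 205 and 224, and miR-182 read 171, 167, 199.99 and 244. Of the endocrine pair, miR-375-3p of islets and pituitary had a mean of 19.5, and miR-7a-5p is described with the variable miRNAs.

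Clusters of miRNA genes differed in how much of them was present. The imprinted Dlk1-Dio3 cluster has miRNAs that are expressed from the maternal chromosome and are abundant in brain. Of its 34 listed members, 33 were detected (97.1%, against 52.6% of all miRNAs), 23 of them above the median of 92.5. The list held 5.04% ± 0.736, with 5.81% and 5.42% on the SO 4 h arrays and 4.80% and 4.13% on the SO 4 d arrays. miR-127-3p was the brightest at 6715, followed by miR-434-3p at 4841, miR-136-5p at 2843 and miR-376a-3p at 2433, and miR-493-5p was detected on no array. All 10 listed miRNAs of the miR-17 family clusters, known for cell proliferation, were detected at moderate levels and held 0.786% ± 0.0278. miR-19b-3p was the brightest at 1021, followed by miR-106b-5p at 856, miR-20a-5p at 655 and miR-25-3p at 645.

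The array carried both arms for 281 precursor names. In 218 of them at least 1 arm was detected on all 4 arrays, and the 5p arm was the higher in 112 and the 3p arm in 106. In 119 of the 218, 1 arm alone was detected on all arrays, and in 107 of these the other was detected on none. Both arms were detected in 99, with the 5p arm higher in 57 and the 3p arm in 42. The arms were usually far apart, with a median of 11.8-fold between them, and 56 pairs differed by over 10-fold, 20 by over 100-fold and 18 by under 2-fold. The higher arm was the same on all 4 arrays in 96 of the 99. Summed over all miRNAs, 5p arms held 55.3% ± 1.59 of the signal, 3p arms 43.5% ± 1.55, and names with no arm 1.25%.

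Among pairs with both arms detected, the largest differences toward 5p were those of let-7g (3026-fold, 11.56 on the log2 scale), let-7d (10.61), miR-26b (10.11), miR-21 (9.56) and miR-151 (9.14). Toward 3p they were those of miR-29b (2865-fold), for which the log2 ratio of 5p over 3p was -11.48, miR-29a (-10.67), miR-124 (-9.38), miR-101a (-8.74) and miR-143 (-8.21). In these 10 the dimmer arm had a mean between 2.77 and 36.6, so the size of the ratio leans on dim signals. The most even pairs were miR-542 (0.11), miR-505 (0.19), miR-433 (-0.19), miR-455 (0.22) and miR-466b (0.25), whose arms had means of 27.5 to 171. The higher arm was not the same on all 4 arrays for miR-542, miR-466b and miR-139.

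miR-9a was the pair in which both arms were in the top 20. miR-9a-5p read 10895, 13712, 12870 and 13927, and miR-9a-3p read 13658, 18277, 18013 and 18318. The 3p arm was the higher on every array, and the log2 ratio was -0.41 with an SD of 0.07. Both arms come from 3 loci in the RefSeq table, on chromosome 2 (2 loci) and chromosome 1. Their seeds, CUUUGGU and UAAAGCU, differ, so they are counted in separate families. Compared on the same scale, miR-219a-5p was 7.57-fold above miR-219a-2-3p, and miR-338-3p was 243-fold above miR-338-5p. A further miR-219a hairpin on chromosome 20 is listed with its 3p arm, miR-219a-1-3p. Whether it adds to the miR-219a-5p signal was not tested.

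**Figure D5:**
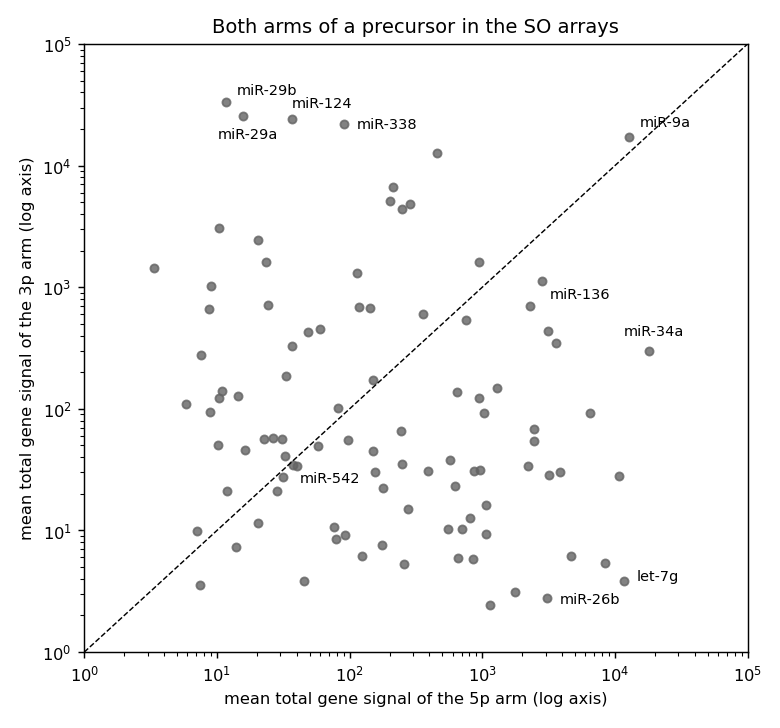
Mean total gene signal over the 4 SO arrays of the 3p arm against the 5p arm (both log axes, scanner units) for the 99 precursor names with both arms detected on all arrays, with a dashed line where both are equal. Points above the line have a brighter 3p arm, and miR-9a stands alone near the line above a signal of 10000.

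The spread of a miRNA's share between arrays was smaller at high levels. The median coefficient of variation (CV) of the share was 5.92% for miRNAs above 10000 and 6.11% from 1000 to 10000, against 12.0% for those under 10. The CV of the signal itself, which is not corrected for the array totals, had medians of 11.6%, 9.62% and 14.4% at these levels. Among the miRNAs above the median level, the most variable were miR-10a-5p (CV of the signal 49.7%), miR-10b-5p (48.0%), miR-7b (46.6%), miR-7a-5p (45.6%) and miR-3473 (37.4%). miR-7a-5p, an inhibitor of alpha-synuclein that is bound by the circular RNA Cdr1as, read 745 and 956 on the SO 4 h arrays and 485 and 309 on the SO 4 d arrays. Its relative miR-7b read 113, 161, 80.3 and 50.6. For miR-137-3p, both miR-7 miRNAs and both miR-10 miRNAs, the SO 4 h arrays both lay above the SO 4 d arrays, with replicate 2 at 4 d the lowest. miR-3473 was the reverse, at 286 and 336 on the SO 4 h arrays and 646 and 434 on the SO 4 d arrays. With the pools of each timepoint made from different animals, time and the pools dissected cannot be told apart in these values.

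The brightest miRNAs shared features of sequence. Among the 684 matched miRNAs, 36.3% begin with U, and these were detected on all arrays in 64.1% of cases with a median of 241, while they held 71.7% of the signal. miRNAs beginning with A were detected in 47.8% of cases, with C in 45.3% and with G in 49.4%. Of the 19 matched miRNAs in the top 20, 15 began with U. The 26 miRNAs listed at more than 1 locus in the table were detected in 88.5% of cases (23 of 26) with a median of 2590, against 52.0% and 79.1 for those at 1 locus. Of the 19, 11 had a relative on the array, detected or not, within 2 base differences, against 72 of 365 detected miRNAs (19.7%). GC content, with medians of 47.6% and 47.8%, was close between detected and undetected miRNAs, and its Spearman correlation with log2 signal across 365 detected miRNAs was -0.25. All these points share the same arrays and the same labeling reaction, which itself depends on the RNA's 3′ end, so the features describe the array signal.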

How the data were processed

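The authors labeled total RNA with Cy3-pCp, hybridised it to a 1-color Agilent rat miRNA array and deposited the scanner files of Agilent Feature Extraction 10.7.3.1. Per the file headers, these hold the intensity of each spot and, for each miRNA, the total gene signal, its error and a detection call. The authors also deposited normalized intensity values, quantile normalized in GeneSpring. Their median was 45.5 on every SO array and their ranks followed the total gene signal (Spearman 0.998 across detected miRNAs). The deposited detection call and control type are flags, other values than intensity.

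Here the total gene signal was taken as deposited for the 758 miRNAs, without control spots, averaged over the 4 SO arrays, and divided by the sum of each array for shares. The UVD arrays were not analysed here. Arms were paired by name, seeds and loci came from the RefSeq tables, and clusters are hairpins of 1 strand at most 10 kb apart. No test between groups was run, and a rule flagged arrays that stood far from the others. Alternatives were other signals, scalings and detection rules and leaving out each array in turn. Named miRNAs were the 20 brightest, 5 markers, up to 4 detected members of each list with its undetected ones, the dimmest, most and least even arm pairs, the most variable and the 5 largest seed families. Other members are named where a sentence needs them. The part of this rule on the brightest undetected miRNAs was void, since all are written as 0.1, and those detected on 3 arrays are given instead. The members, lists and rule were chosen with earlier results of these data known. The calculations were tested on simulated data. Python 3.11.15 with pandas 2.3.3, numpy 2.4.6, scipy 1.17.1 and matplotlib 3.10.9 were used.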

Additional observations from a re-analysis of the deposited data

Results flagged for a closer look

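Of 46 sets of 4 SO arrays examined by a rule for an array that stands far from the other 3, 4 had one. For alike arrays and independent sets the rule would flag about 1 in 20 by chance. Here the 4 arrays span both timepoints and the sets are shares of the same sums, so the count cannot be read against that rate. miR-338-3p held 3.43% of the signal on SO 4 h replicate 1 and 3.69% to 3.72% on the others. let-7g-5p held 1.78% on the same array and 1.96% to 1.99% on the others. The pluripotent and placental list, which is nearly all miR-290, held 0.0461% there and 0.0371% to 0.0385% on the others. On this array, the dimmest in summed signal, miR-290 itself read 242, within its range of 229 to 248 on the other arrays. The testis list held 0.00524% on SO 4 h replicate 2 and 0.00440% to 0.00445% on the others, and these sums include the 0.1 written for undetected members.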

How the results depend on the processing

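Of 99 values under other settings, 90 stayed the same and 9 moved. A share counts as the same within 1 SD over the arrays and a count within 1.5 times. Summing only the miRNAs detected on all arrays could hardly move a share, since they held 99.98% of the signal. With the authors' normalized values the top 10 held 38.98%, the top 20 held 59.19% and the neuron-enriched list 12.11%. With the brightest probe of each miRNA, an alternative chosen after seeing the data, the top 10 held 42.82%, the neuron-enriched list 14.30%, the oligodendrocyte list 7.89% and the astrocyte list 16.80%, miR-125b-5p came before miR-29b-3p, miR-124-3p went from rank 7 to 3 and miR-219a-5p from 2 to 6, and 19 of the 20 brightest miRNAs were shared. Requiring both arms to be detected gave 57 precursors with a higher 5p arm and 42 with a higher 3p arm. Pairing by hairpin and a signal over 5 were also chosen later. A signal over 3 times its error is the call itself. Leaving out each array in turn gave 399 to 402 miRNAs detected on all and 331 to 337 on none, top 10 shares of 41.6% to 42.1%, top 20 shares of 61.8% to 62.8%, 13 to 14 miRNAs for 50% of the signal, shares of 13.3% to 13.6% (neuron-enriched), 9.01% to 9.35% (oligodendrocyte), 17.5% to 18.1% (astrocyte) and 20.5% to 21.6% (let-7), 112 higher 5p arms, 106 to 107 higher 3p arms and 20 of the 20 brightest miRNAs shared. No paired analysis was possible because no result comes from a test. Low signals limit the list of what is present, as miRNAs under 10 had a median error of 19.8% of their signal against 7.34% above 10000.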

Other observations

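Neighboring hairpins were often detected together. Hairpins of the array's miRNAs within 10 kb on 1 strand of GRCr8 formed 51 clusters. All hairpins gave a detected miRNA in 28 of them, none did in 8 and some did in 15, and 263 of 404 hairpins in the table (65.1%) gave one. The miR-17 to miR-92a cluster had 6 of 6 hairpins detected, with miR-19b-3p 22.5-fold above miR-18a-5p. The miR-379 to miR-410 cluster of the Dlk1-Dio3 region had 27 of 31, the miR-290 to miR-295 cluster 2 of 7 and the X-linked miR-471 to miR-465 cluster 1 of 10. A mature miRNA made from several hairpins, such as miR-19b-3p or miR-24-3p, was counted for each of them, since the array cannot say which one it came from. Signals within a cluster, which are read by different probes, were alike in some clusters and far apart in others. miR-497-5p and miR-195-5p differed 1.04-fold and miR-34b-5p and miR-34c-5p 1.17-fold, while miR-143-3p was 18.5-fold above miR-145-5p and miR-376a-3p 363-fold above miR-377-3p.

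miRNAs with late names were mostly dark. Of the 138 miRNAs with a number of 1000 or above, 35 (25.4%) were detected on all 4 arrays and held 0.561% of the signal, led by miR-1224 at 1202. Of the 620 others, 364 (58.7%) were detected. The miRNAs miR-3596a to miR-3596d, antisense to let-7 genes, were detected on 1, 1, 0 and 0 arrays, while their let-7 counterparts are among the brightest miRNAs.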
